A study of Mus musculus with 4 samples.

Results

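CD8 T cells of mouse lung tumours were picked out of a droplet-based single-cell RNA data set by the transcripts they carried. Cells were chosen by their UMI counts of a few genes. A barcode was taken as a CD8 T cell when it held at least 1 UMI (unique molecular identifier, the count of 1 captured transcript) of Cd3d, Cd3e and Cd3g together and at least 2 UMIs of Cd8a and Cd8b1 together. It also had to hold no UMI of Cd4, Foxp3, Cd79a, Epcam or C1qa and at most 1 UMI of Trdc and Cd163l1. This rule found 332 cells among the 28085 barcodes that passed the quality filter (200 or more genes, no more than 20% of UMIs from mitochondria), all of them in the libraries made before immune cells were depleted. Of these cells, 184 came from the vehicle library and 148 from the library labelled tamoxifen. Because UMIs of these genes chose the cells, levels of the same genes are given as a description and were not tested.

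The mice carried p53frt, Rosa-FSF-CreERT2 and Hnf4aflox in every group. The titles name the vehicle libraries KP and those labelled tamoxifen KPH, while the genotype given is the same for all 4 libraries and the treatment protocol calls all the mice KPH. FlpO was delivered to the lung by an adenovirus with the mSPC promoter, which is active in alveolar type 2 cells, so the recombinase that switches on CreERT2 was aimed at epithelium and not at lymphocytes. Tamoxifen or vehicle, which the labels name as ethanol in one place and corn oil in another, was injected 10 weeks after virus, and cells were taken 2 weeks later. Each treatment gave 1 library before and 1 after removal of cells bearing CD45 and CD31, and cells were frozen, thawed and sorted for live single cells before library preparation. How many animals or tumours fed a suspension was not given in the sources used here, so differences between treatments have no replicate check.

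CD8 T cells recognise peptides on MHC class I through a receptor built from Trac and Trbc chains, with CD8 as the co-receptor. Naive and central memory cells circulate through lymphoid organs with the help of the chemokine receptor Ccr7 and carry the transcription factors Tcf7 and Lef1. Activated cells make granzymes, perforin, interferon gamma and chemokines such as Ccl5 and Xcl1. Tissue-resident memory cells stay in epithelia, where the integrin chain Itgae (CD103) binds E-cadherin and Cxcr6 and Itga1 are typical. Chronic stimulation adds inhibitory receptors such as Pdcd1, Lag3 and Havcr2 and the factor Tox.

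Each of the 4 libraries held between 6558 and 7867 barcodes and between 92644997 and 144994771 UMIs. Hnf4a (ENSMUSG00000017950, chromosome 2, 163506808 to 163572910), the floxed gene, was counted at 28.4 CPM in barcodes with an Epcam UMI of the vehicle library before depletion and at 48.0 CPM in the library labelled tamoxifen. After depletion it stood at 54.9 and 82.3 CPM. The level was higher where the label implies deletion, so directions are given for libraries as labelled. CPM is the usual depth-scaled count, taken here over UMIs summed across cells. In CD8 T cells Hnf4a gave 0 and 1 UMI, and neither Cre nor flpO gave any. Libraries shared between 10 and 18 barcode sequences pairwise, and no CD8 T cell barcode was shared. Intervals are exact 95% intervals, Clopper-Pearson for shares, Poisson for CPM and conditional binomial for ratios, and cover counting error only.

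CD8 T cells made up 2.52% (2.17 to 2.90) of kept barcodes in the vehicle library before depletion and 2.38% (2.01 to 2.79) in the library labelled tamoxifen, and these intervals overlap. Of barcodes with a Cd3d, Cd3e or Cd3g UMI they made up 12.8% (11.1 to 14.7) of 1436 and 16.1% (13.8 to 18.7) of 917. After depletion 0 of 7043 and 0 of 7511 kept barcodes passed, which allows shares of up to 0.0426% and 0.0399%. Only 1 and 0 barcodes there held a Cd3 UMI at all. The same filters gave 370 and 212 conventional CD4 T cells (Cd4 without Foxp3), 123 and 46 regulatory T cells (Foxp3) and 108 and 61 NK cells (at least 2 UMIs of Ncr1 and Klrb1c, none of Cd3) before depletion. In this and later pairs the vehicle value comes first.

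Cd8a, Cd8b1 and Cd3 genes chose the cells, so their levels here are a description and no check of the label. Cd8a (ENSMUSG00000053977) was seen in 90.2% and 94.6% of the cells and Cd8b1 (ENSMUSG00000053044), its partner chain in the heterodimer of conventional CD8 T cells, in 94.0% and 95.9%. Both lie on chromosome 6, Cd8a from 71373427 to 71379173 and Cd8b1 from 71322788 to 71337494. Both chains were seen together in 84.2% and 90.5% of cells. Of the markers given, only Trac, Trbc1 and Trbc2, the constant parts of the receptor, were not used by the rule, and at least 1 UMI of them was seen in 98.4% and 99.3%. Cd3e itself was seen in 78.3% of vehicle cells and reached 354 and 423 CPM. At the edge of the rule, 21 and 8 barcodes with 1 CD8 UMI lay just outside and 8 and 5 with exactly 2 lay just inside. Their Itgae levels were 71.6 and 115 CPM outside and 243 and 97.6 CPM inside, against 332 and 406 CPM in cells with more CD8 UMIs.

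Transcripts of other cells were low but not absent. At least 1 UMI of Lyz2, Chil3, Cd79b, Sftpc or S100a8, which mark macrophages, B cells, type 2 epithelium and neutrophils, was seen in 170 of 184 and 145 of 148 CD8 T cells, at a median of 0.0457% and 0.0616% of a cell's UMIs. The 12 macrophage markers summed to 1060 and 1077 CPM, against 15234 and 15222 CPM in barcodes without Cd3. The 8 epithelial markers, Cdh1 among them, summed to 576 and 854 CPM, against 28653 and 35725 CPM, and the 8 NK cell markers to 253 and 239 CPM, against 18023 and 20017 CPM in NK cells. The 8 B cell markers summed to 172 and 176 CPM, with 3 and 5 of them at 0. One barcode of the library labelled tamoxifen stood apart. It held 35 of that library's 36 CD8 T cell UMIs of Siglech, a lectin known from plasmacytoid dendritic cells, with 56 UMIs of Irf8, 5 of Cd8a, 2 of Cd8b1, 1 of Cd3g and none of Trac or Trbc2. Results that rest on it are given with and without it.

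Once mitochondrial and ribosomal protein genes were set aside, an unnamed gene had the highest level in these cells, at 20265 and 26116 CPM. Tmsb4x, Malat1, Tpt1 and Actb followed it, and Ccl5 was the ninth gene. Sums over CD8 T cells held 1380816 and 1005637 UMIs, with medians of 6178.5 and 6244 UMIs per cell.

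The comparison with conventional CD4 T cells asked what sets CD8 T cells apart from those cells in the same suspension. CD8 T cells were higher for cytotoxic genes and for genes of epithelial residence, and lower for genes of naive and recirculating cells. UMIs were summed per library and cell type and fitted with edgeR's quasi-likelihood test over CD8, conventional CD4, regulatory T and NK cells, with the library as a term. Benjamini-Hochberg adjusted p-values under 0.05 were called. Of 9665 genes, 513 were called (5.31%), 216 as higher (2.23%) and 297 as lower (3.07%) in CD8 T cells, and 512 of the 513 went the same way in both libraries. The p-values measure only how far the type difference varied between 2 libraries that also differ in treatment, and genes used in the gates were left out.

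**Figure D1:**
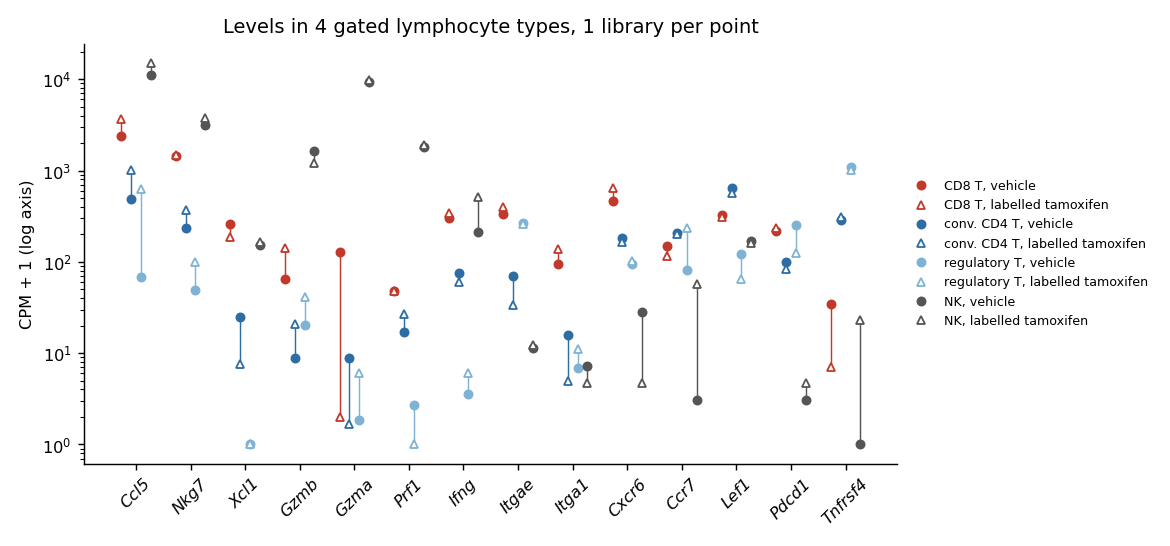
Level of 14 genes as CPM + 1 on a log axis in CD8 T, conventional CD4 T, regulatory T and NK cells. Filled circles are the vehicle library, open triangles the library labelled tamoxifen, and a line joins both. Itgae, Itga1, Cxcr6 and Xcl1 stand higher in CD8 than in conventional CD4 T cells in both libraries, while Gzma, Gzmb and Prf1 stand far above CD8 T cells in NK cells.

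Among cytotoxic and effector genes, 13 of the 20 tested members passed as higher and 0 as lower, with a median log2 fold change of 1.81, against -0.0090 over all genes tested. At an unadjusted p under 0.05 edgeR also had 0 lower, and DESeq2 called 9 higher and 0 lower. Ccl5 (ENSMUSG00000035042, chromosome 11), a chemokine of effector and memory T cells, was counted at 2374 and 3622 CPM in CD8 T cells and at 483 and 1018 CPM in conventional CD4 T cells. The log2 fold change was 2.07 ± 0.39 (SE, adjusted p = 0.0056). Nkg7 (ENSMUSG00000004612, chromosome 7), a protein of cytotoxic granules, was at 1459 and 1480 CPM against 234 and 367 CPM (2.31 ± 0.18, adjusted p = 3.9e-06). Ifng, the cytokine interferon gamma, was at 304 and 344 CPM against 74.7 and 58.8 CPM (2.22 ± 0.25). No CD8 value of these genes overlapped the CD4 values. Granzyme B was lower in level, at 64.4 and 142 CPM against 7.90 and 19.8 CPM, and passed (2.92 ± 0.39). Prf1, the pore-forming perforin, was at 47.1 and 46.7 CPM against 16.2 and 25.8 CPM (1.20 ± 0.23). Tnf and Ccl3 did not pass, with log2 fold changes of 1.01 ± 0.29 and 0.94 ± 0.40, and neither did Srgn and Gzmk, at -0.08 ± 0.11 and -0.46 ± 0.43.

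Of the 10 genes named as higher in CD8 T cells by their fold, 4 were killer cell lectin-like receptor genes, Klrc1, Klrd1, Klrc2 and Klrk1. Klrc1 (ENSMUSG00000030167, chromosome 6), which encodes the inhibitory receptor NKG2A, was counted at 125 and 105 CPM, from 173 UMIs in 60 cells and 106 UMIs in 41 cells. Conventional CD4 T cells held 4 and 1 UMIs of it. Its log2 fold change of 6.42 ± 0.34 (adjusted p = 1.2e-07) was the largest of the 10 genes named as higher. Klrd1, the CD94 chain that pairs with it, was at 277 and 196 CPM against 12.6 and 7.92 CPM (4.44 ± 0.41), and missed the threshold under DESeq2 (adjusted p = 0.168). Klrk1, the activating receptor NKG2D, was at 123 and 129 CPM against 11.9 and 7.26 CPM (3.61 ± 0.25). Klrc2 and Smyd1 had log2 fold changes of 4.18 ± 0.35 and 4.83 ± 0.63. The other genes named by rule were Bend4, Adgrg5, Xcl1, Csf1 and Srgap3, with log2 fold changes from 3.60 to 3.87. Csf1, the growth factor of macrophages, was at 56.5 and 93.5 CPM against 8.69 and 1.98 CPM.

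Of 16 tested residence genes, 9 were higher and 1 lower, with a median of 1.18. Itgae (ENSMUSG00000005947, chromosome 11) was counted at 330 and 400 CPM against 69.1 and 33.0 CPM (log2 fold change 2.79 ± 0.24, adjusted p = 7.9e-06). Itga1, a collagen-binding integrin chain of resident cells, was at 94.2 and 138 CPM against 14.6 and 3.96 CPM (3.46 ± 0.37). Cxcr6 (ENSMUSG00000048521, chromosome 9), a chemokine receptor, was at 463 and 637 CPM against 183 and 162 CPM (1.64 ± 0.21). Xcl1 (ENSMUSG00000026573, chromosome 1), a chemokine that attracts cross-presenting dendritic cells, was at 259 and 186 CPM against 24.1 and 6.60 CPM (3.77 ± 0.29). Of its UMIs in CD8 T cells, 75 of 357 and 76 of 187 came from 1 cell in each library, and without them the level was 204 and 110.4 CPM, above both CD4 values. Cdh1, which encodes E-cadherin, the ligand of the Itgae integrin, was at 135 and 219 CPM against 16.6 and 18.5 CPM (3.25 ± 0.25). Cdh1 is also an epithelial marker, and the summed epithelial markers were 576 and 854 CPM in CD8 and 868 and 557 CPM in conventional CD4 T cells. Cd69, an activation and retention receptor, was at 497 and 464 CPM against 276 and 298 CPM (0.73 ± 0.14). Ly6a was the lower member, at 113 and 234 CPM against 309 and 415 CPM (-1.15 ± 0.18).

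The upstream sequences of Nkg7, Xcl1 and Cxcr6 are printed as 3 examples, picked after the matches were seen, of genes higher in CD8 T cells whose window holds a match to a core motif of the Runx family. Klrc1 also held 1 match, and Itga1, Ifng, Irf4 and Tbx21, higher as well, held none. Runx3, higher too, held 2 matches in its first entry and 0 in its second. They come from RefSeq (GRCm38.p6) and are the 250 bases before each start, read on the gene's own strand. Capitals mark the letters TGTGGT, a core of Runx sites, and AGGTGTGA, a T-box core, on either strand.
Nkg7, chr7:43436888-43437137, plus strand: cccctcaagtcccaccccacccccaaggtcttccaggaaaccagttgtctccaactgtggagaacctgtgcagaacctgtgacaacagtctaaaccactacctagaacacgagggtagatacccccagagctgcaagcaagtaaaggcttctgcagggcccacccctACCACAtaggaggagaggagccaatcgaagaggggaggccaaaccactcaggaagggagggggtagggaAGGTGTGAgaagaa
Xcl1, chr1:164935523-164935772, minus strand: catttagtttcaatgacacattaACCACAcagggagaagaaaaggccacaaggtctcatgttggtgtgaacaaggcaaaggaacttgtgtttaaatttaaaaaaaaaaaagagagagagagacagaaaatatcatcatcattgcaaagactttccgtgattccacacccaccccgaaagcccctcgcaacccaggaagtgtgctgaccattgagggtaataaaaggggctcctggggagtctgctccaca
Cxcr6, chr9:123806227-123806476, plus strand: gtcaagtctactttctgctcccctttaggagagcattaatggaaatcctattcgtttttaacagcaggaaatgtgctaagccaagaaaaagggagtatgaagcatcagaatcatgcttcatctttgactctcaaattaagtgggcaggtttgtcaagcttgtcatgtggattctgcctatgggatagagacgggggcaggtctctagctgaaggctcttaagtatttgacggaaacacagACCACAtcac
Each window held 1 match to TGTGGT, and Nkg7 also held 1 to AGGTGTGA. Of 32851 windows of the same length in the table, 14.0% held the first and 1.12% the second, and the motifs share no overlap in these windows. Of 15 genes looked up, 10 had an entry and 5 of these held TGTGGT. A match of letters is a description only.

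**Figure D2:**
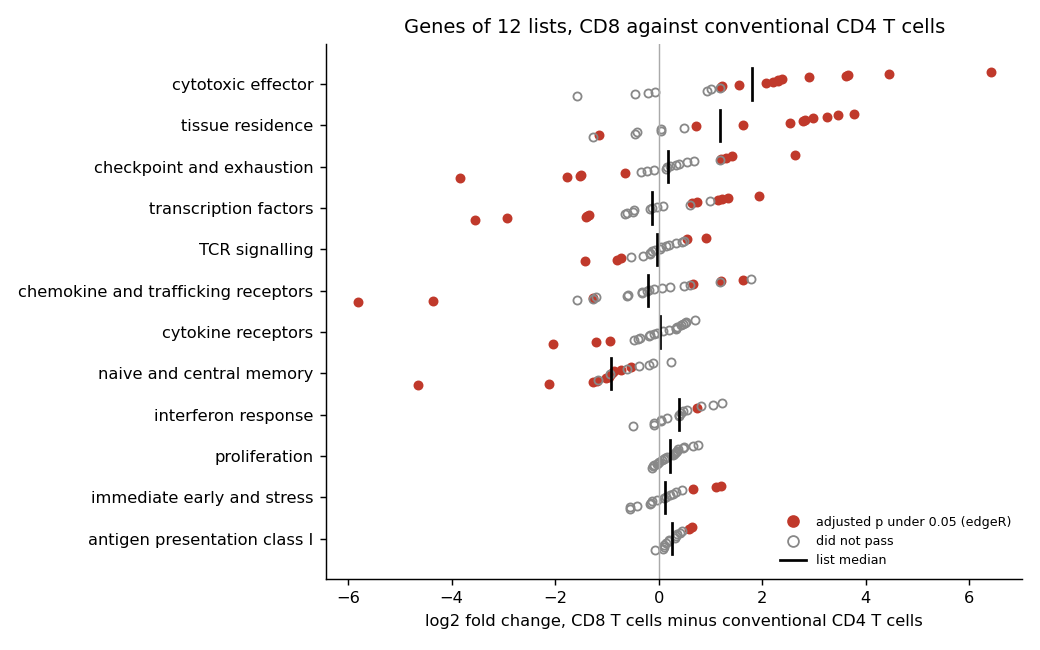
Log2 fold change of CD8 minus conventional CD4 T cells for the tested genes of 12 lists, with filled points for adjusted p under 0.05 in edgeR's quasi-likelihood test, open points for the rest and a bar at the list median. The cytotoxic and residence lists lie mostly to the right and the naive list to the left, while the proliferation list holds no filled point.

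Genes of naive and central memory cells were lower. Of 18 tested, 0 passed as higher and 11 as lower, with a median of -0.92. At an unadjusted p under 0.05 edgeR had 0 higher and 12 lower, and DESeq2 called 0 and 8. Il7r, the survival receptor for interleukin 7, was counted at 535 and 443 CPM in CD8 against 949 and 905 CPM in conventional CD4 T cells (-0.94 ± 0.13). Lef1 was at 324 and 307 CPM against 650 and 569 CPM (-0.96 ± 0.16), and Tcf7 at 183 and 140 CPM against 371 and 273 CPM (-1.01 ± 0.20). S1pr1, the receptor that guides exit from tissue, was at 97.8 and 76.6 CPM against 228 and 186 CPM (-1.27 ± 0.17). Ccr7 did not pass, at -0.62 ± 0.36.

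Genes of the checkpoint and exhaustion list went both ways. Of 20 tested checkpoint and exhaustion genes, 4 were higher and 5 lower, with a median of 0.18. Pdcd1, which encodes PD-1, was counted at 216 and 232 CPM in CD8 against 98.0 and 82.5 CPM in conventional CD4 T cells (1.30 ± 0.21, adjusted p = 0.0017). Cd160, Cd38 and Nr4a2 were the other higher members, at 2.63 ± 0.46, 1.42 ± 0.31 and 1.21 ± 0.17. Tnfrsf4, Tnfrsf18, Slamf6, Btla and Icos were lower, from -3.83 ± 0.40 for Tnfrsf4 (OX40) to -0.65 ± 0.15 for Icos. Tnfrsf4, Tnfrsf18 and Icos are known as costimulatory receptors. Tnfrsf4 missed the threshold under DESeq2 (adjusted p = 0.306). Ctla4 was the most abundant of the list, at 516 and 528 CPM against 626 and 478 CPM, and did not pass (-0.09 ± 0.18). Lag3, at 23.9 and 10.9 CPM, and Havcr2, at 65.2 and 56.7 CPM, did not pass either (0.33 ± 0.57 and 1.18 ± 0.35).

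Of 21 tested transcription factors, 6 were higher and 5 lower, with a median of -0.13. Runx3, which sustains CD8 identity and represses Cd4, was counted at 317 and 288 CPM against 123 and 113 CPM (1.34 ± 0.18, adjusted p = 0.00040). Tbx21 (T-bet), which drives effector genes, was at 148 and 180 CPM against 53.3 and 29.7 CPM (1.95 ± 0.22). Irf4, Zeb2, Ikzf3 and Id2 were also higher, at 1.23, 1.15, 0.75 and 0.64. Zbtb7b (ThPOK), the factor of the CD4 lineage, was at 2.17 and 3.98 CPM against 25.3 and 20.5 CPM (-2.94 ± 0.46). Maf, Gata3, Runx1 and Ikzf2 were the other lower members, at -3.55, -1.41, -1.38 and -1.35. For Ikzf2 the log2 ratio of CD8 over conventional CD4 T cells was -0.40 with vehicle and -2.82 in the library labelled tamoxifen. Eomes and Prdm1 did not pass, at 0.61 ± 0.37 and -0.03 ± 0.22.

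The 10 genes named as lower in CD8 T cells were not all of one kind. Il1rl1, the interleukin 33 receptor, gave 0 UMIs in CD8 T cells of either library and 81 and 85 UMIs in conventional CD4 T cells, where it was at least 14.7-fold higher with vehicle, and at least 18.8-fold in the other library, against a floor of 3 counts each. Regulatory T cells held Il1rl1 at 568 and 309.8 CPM. Cd40lg, the helper ligand of CD40, gave 1 and 2 UMIs against 186 and 175. Ccr4 gave 1 and 0 UMIs against 72 and 45. St6galnac1, Pde7b, Plagl1, St8sia6, Ly6c1, Pard3 and Tnfrsf4 completed the 10, with fitted log2 fold changes from -6.17 to -3.83.

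Beside the 5.31% called among all genes, 5 of the 18 tested receptor signalling genes passed. Of these, Thy1 and Ptpn22 were higher and Cd5, Cd28 and Cd247 lower. Of 20 cytokine receptors, 0 were higher and 3 lower (Il7r, Il6ra and Ifngr2) under edgeR, where 3 were higher at an unadjusted p under 0.05, and 0 under DESeq2. Selplg, Cxcr6 and Ccr2 were higher and S1pr1, Ccr4 and Ccr6 lower among 22 trafficking receptors. Bst2 was the 1 interferon response gene of 15 that passed, as higher. In the library labelled tamoxifen 39 of its 163 UMIs came from 1 cell. Without the top cell of each library its level was 76.8 and 123 CPM, against 65.6 and 74.0 CPM in conventional CD4 T cells. Psmb9 and H2-Q6 were higher among 14 class I presentation genes, and Klf6, Fosb and Egr1 among 16 immediate early and stress genes. DESeq2 called 0 interferon response genes, 0 class I presentation genes and, as higher, 2 immediate early and stress genes. None of 20 proliferation genes passed in either direction under edgeR or DESeq2, and 1 was higher at an unadjusted edgeR p under 0.05.

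Against NK cells, the other cytotoxic lymphocytes of the suspension, CD8 T cells had far lower granule genes. In the same edgeR fit, 1737 of 9665 genes were called (18%), 912 as higher (9.44%) and 825 as lower (8.54%) in CD8 T cells. Of 20 cytotoxic genes, 14 were lower and 2 higher (Tnf and Gzmk), with a median of -1.88, against 0.03 over all genes tested. Gzma (ENSMUSG00000023132, chromosome 13), granzyme A, was counted at 127 and 0.994 CPM in CD8 T cells and 9252 and 9722 CPM in NK cells (-7.38 ± 0.64). Gzmb was at 64.4 and 142 CPM against 1623 and 1223 CPM (-3.83 ± 0.31), and Prf1 at 47.1 and 46.7 CPM against 1823 and 1900 CPM (-5.22 ± 0.20). Ifng did not pass, at 304 and 344 CPM against 210 and 517 CPM (0.02 ± 0.25), nor did Xcl1, at 259 and 186 CPM against 152 and 164 CPM (0.61 ± 0.27). For Ifng the CD8 values lay between both NK values.

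Residence and checkpoint genes were higher in CD8 T than in NK cells. Of 16 residence genes 10 were higher and 2 lower, and of 20 checkpoint genes 11 were higher and 2 lower. This was not particular to these lists. Of 18 receptor signalling genes 13 were higher and 1 lower, and of 14 class I presentation genes 11 and 0. Of 20 proliferation genes 11 were higher and 0 lower, and of 18 naive and central memory genes 10 and 3. Of 21 transcription factors 3 were higher and 12 lower, and of 16 immediate early and stress genes 2 and 8. Itgae reached 10.4 and 11.1 CPM in NK cells (5.18 ± 0.41) and Cxcr6 27.1 and 3.72 CPM (4.95 ± 0.35). Pdcd1 reached 2.08 and 3.72 CPM there (6.46 ± 0.52). Irf4, a factor induced by antigen receptor signals, gave 0 UMIs in NK cells of both libraries and 217 and 148 in CD8 T cells. That is at least 25.2-fold higher with vehicle, and at least 13.2-fold in the other library, against a floor of 3 counts each. The other 9 higher genes named by rule, Lrig1, Isg20, Dapl1, Zc3h12d, Actn2, Sit1, Spsb1, Slamf1 and Patj, were likewise at 0 UMIs in NK cells. Against the same floor their bounds were lower, from 3.71-fold (Sit1) to 16.6-fold (Lrig1) with vehicle. In the other library they ran from 2.05-fold (Slamf1) to 10.3-fold (Isg20). The Ly49 receptor genes Klra8, Klra4 and Klra7 gave 0 UMIs in CD8 T cells, and Klra8 was at least 316-fold higher in NK cells with vehicle, and at least 354-fold in the other library. Klra8, Klra4, Klra7, Klrb1a and Serpinb9b missed the threshold under DESeq2, with adjusted p from 0.0739 to 0.225. Clnk, Aoah, Klrb1a, Serpinb9b, Sema6a and D5Ertd615e were also at 0 in CD8 T cells, and Klra9 gave 1 UMI.

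CD8 T cells were not alike among themselves, and Ccl5 was held by only some of them. Each cell was thinned to 2000 UMIs so that depth did not set the count, which left out 0 and 2 cells. At least 2 Ccl5 UMIs were then held by 81 of 184 cells, 44.0% (36.7 to 51.5), and by 83 of 146 cells, 56.8% (48.4 to 65.0), and the intervals overlap. Only 12 and 6 cells held exactly 1, near the edge of these ranges, and 91 and 57 held none. At least 1 UMI was held by 50.5% and 61.0% of thinned cells, and by 57.6% of vehicle cells before thinning. B cells, which should lack the gene, gave 1.38% and 0.617%. The ranges are cuts of a per-cell count and not cell types.

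Cells with at least 2 and with 0 Ccl5 UMIs differed in some granule and chemokine genes and in more of the naive genes. Of 6223 genes, 58 (0.932%) were higher and 71 (1.14%) lower with Ccl5 by 2-fold or more in both libraries, at 20 CPM or more in the higher range. This is a rule of size with no test. Of 15 cytotoxic and effector genes considered, with Ccl5 itself left out, 5 were higher in both libraries (Gzmb, Gzmk, Prf1, Ccl3 and Ccl4) and 0 lower, with medians of 0.75 and 0.96. Gzmb was at 164 and 230 CPM with Ccl5 and at 6.45 and 48.6 CPM without, Prf1 at 84.2 and 77.9 against 25.8 and 13.9 CPM, and Ccl3 at 170 and 129 against 55.5 and 37.0 CPM. In the vehicle library 52 of the 152 Ccl3 UMIs of CD8 T cells came from 1 cell. Cells with at least 2 Ccl5 UMIs held 87 of the 152 and cells with none held 43, so that cell was not among those without Ccl5. Whether Ccl3 meets the rule without that cell was not tested. Serpinb9, an inhibitor that guards cells from their own granzyme B, was at 102 and 36.1 against 27.1 and 9.26 CPM. Prdm1 (Blimp-1), a factor of terminal effector cells, was at 66.6 and 62.7 against 21.9 and 11.6 CPM. B3galt5, Csf1, Serpinb6b and Dgkh were also named as higher.

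**Figure D3:**
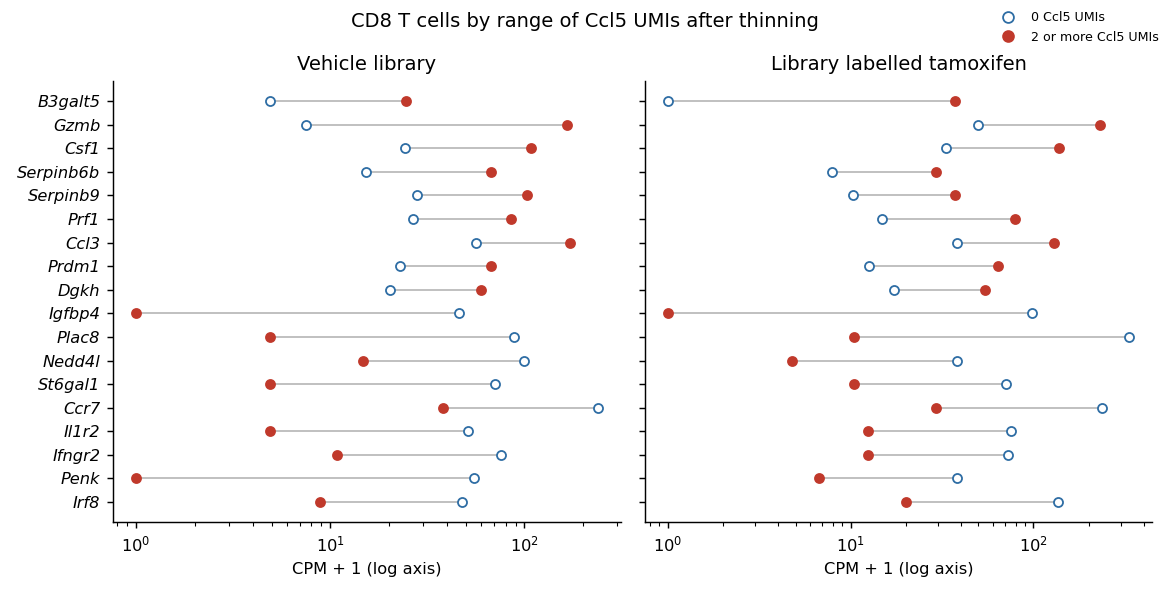
CPM + 1 on a log axis in CD8 T cells with 0 (open) and with at least 2 Ccl5 UMIs after thinning (filled), for 9 higher and 9 lower genes named by rule, in each library. Gzmb moves from 6.45 to 164 CPM in the vehicle library and Ccr7 from 237 to 37.2 CPM. In the library labelled tamoxifen, the lower level of Irf8 rests on 1 barcode. Without that barcode the log2 ratio of Plac8 there is -1.39 instead of -4.99.

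On the lower side, Ccr7 was at 37.2 and 28.5 CPM with Ccl5 and 237 and 236 CPM without it. Igfbp4, a gene of naive T cells, gave 0 UMIs with Ccl5 in either library and 35 and 42 without. Of 16 naive and central memory genes considered, 10 were at least 2-fold lower in both libraries and 0 higher, with medians of -1.51 and -2.27, against 0.04 and 0.10 over all genes considered. Nedd4l, St6gal1, Il1r2, Ifngr2 and Penk were lower as well. Irf8 and Plac8 met the rule too, but in the library labelled tamoxifen 56 of 58 Irf8 UMIs of cells without Ccl5 came from the barcode with Siglech. Without that barcode the log2 ratio of Irf8 there was 1.78 instead of -2.76, and that of Plac8 -1.39 instead of -4.99. Of 17 checkpoint genes considered, 0 were at least 2-fold apart the same way in both libraries, with medians of 0.19 and 0.61. Over all genes 0.932% were higher and 1.14% lower, so a count of 0 among 17 cannot tell this list apart. Of 14 residence genes considered, 1 was at least 2-fold higher in both libraries, Itga1, and 0 lower, with medians of 0.62 and 0.89. After thinning, at least 2 Ccl5 UMIs were held by 47.79% and 66.34% of cells with a UMI of Itgae, Itga1, Cxcr6 or Xcl1. Of the other cells, 38.03% and 35.56% held as many. Whether these shares differ was not tested. The ranges did not part cleanly: of cells with at least 2 Ccl5 UMIs, 28 of 81 and 19 of 83 also held a UMI of Ccr7, Lef1 or Tcf7.

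Naive and resident transcripts tended to sit in different cells. After thinning, a UMI of Ccr7, Lef1 or Tcf7 was held by 43.5% (36.2 to 51.0) and 32.2% (24.7 to 40.4) of cells, and a UMI of Itgae, Itga1, Cxcr6 or Xcl1 by 61.4% (54.0 to 68.5) and 69.2% (61.0 to 76.6). Both were held by 15.8% and 10.3%, where independence would give 26.7% and 22.3%. Among cells with a naive transcript 36.2% and 31.9% also held a resident one, against 80.8% and 86.9% of the other cells. Itgae was held by 38.6% and 42.5% of CD8 T cells, and by 8.77% and 5.34% of conventional CD4 T cells and 0% and 0.617% of B cells (0 of 362, which allows a share of up to 0.829%, and 1 of 162). Regulatory T cells held it as often, in 39.3% and 33.3%, with intervals that overlap those of CD8 T cells. Cxcr6 was held by 67.6% and 79.0% of Itgae-positive cells and 31.9% and 41.7% of the rest. Cdh1 was held by 35.2% and 40.3% of Itgae-positive cells and 10.6% and 22.6% of the rest. Pdcd1 was held by 23.4% and 26.0% of cells, of which 86.0% and 86.8% held a resident transcript, against 53.9% and 63.0% of Pdcd1-negative cells. Of regulatory T cells, 36.1% and 24.4% held Pdcd1.

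**Figure D4:**
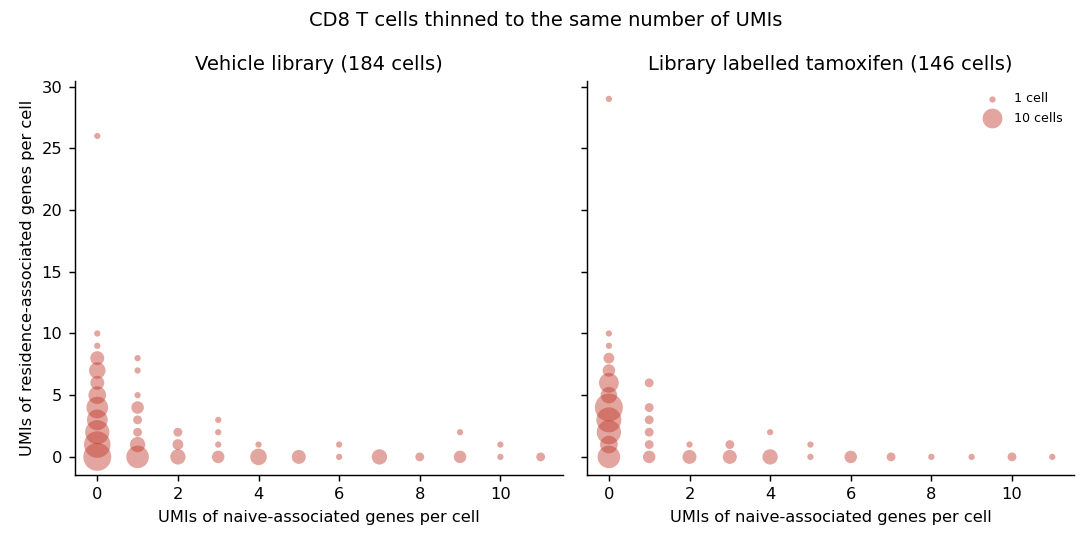
Each point is a count of CD8 T cells, with its area in proportion to the number of cells, by UMIs of Ccr7, Lef1 and Tcf7 (horizontal) and of Itgae, Itga1, Cxcr6 and Xcl1 (vertical) after thinning to 2000 UMIs. Cells lie mostly along either axis, and 29 of 184 and 15 of 146 cells held both.

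Antigen receptor V genes were too sparsely counted to group cells by receptor. A Trav UMI was seen in 22 and 23 cells and a Trbv UMI in 22 and 12. In the vehicle library Trav16 was seen in 10 cells and Trbv19 in 9.

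The comparison of treatments asked whether CD8 T cells differed between the libraries labelled vehicle and tamoxifen. Interferon response genes were higher and proliferation genes lower in the library labelled tamoxifen, and granzyme A was seen almost only with vehicle. In this comparison tamoxifen stands for the library labelled so. With 1 library each there is no test, and a gene was counted when CPM with a pseudocount of 1 differed at least 2-fold and reached 20 CPM in either library. Of 6668 genes considered, 256 (3.84%) were that far apart, 92 (1.38%) higher and 164 (2.46%) lower with tamoxifen. TMM scaling gave 110 and 129, and median of ratios 111 and 129, so the share of higher genes went from 35.9% to 46.0% and 46.3%. The median log2 ratio of all genes considered was -0.09, and 2675 of the 6668 had a ratio above 0. In conventional CD4 T cells 2.63% of genes were that far apart (0.53% higher, 2.1% lower). In regulatory T cells it was 12.6% (3.74% higher, 8.87% lower) and in NK cells 15.6% (5.33% higher, 10.3% lower), both of which hold fewer UMIs than CD8 T cells.

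**Figure D5:**
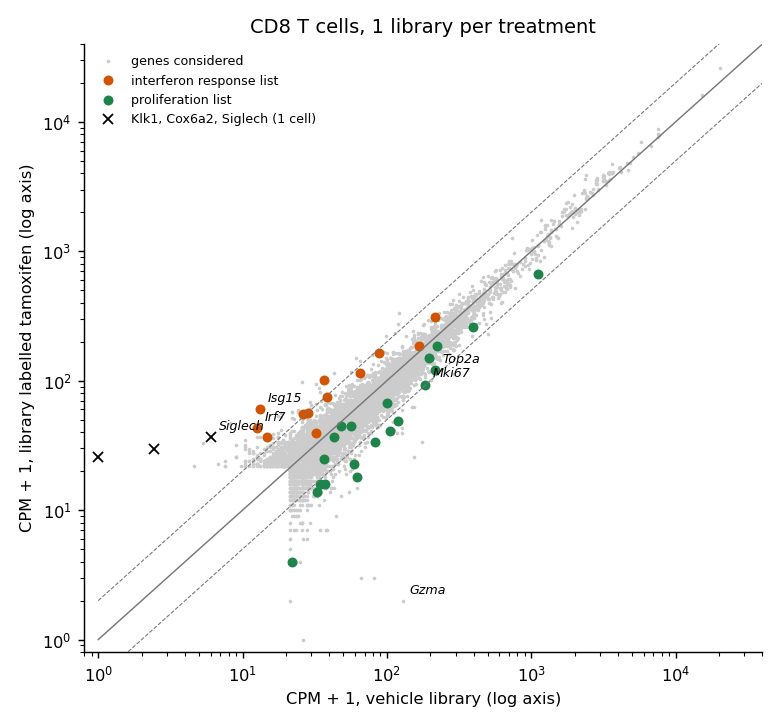
CPM + 1 of the 6668 genes considered in CD8 T cells, vehicle library (horizontal) against the library labelled tamoxifen (vertical), both axes log, with a solid line at equality and dashed lines at 2-fold. The interferon list lies above and the proliferation list below the solid line. Klk1, Cox6a2 and Siglech come from 1 barcode.

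Of 19 measured interferon response genes, 17 were higher with tamoxifen and 2 lower, with a median log2 ratio of 1.08. By the 2-fold rule, 5 of the 12 considered were higher and 0 lower, and all 12 had a ratio above 0. At 20 CPM or more with vehicle alone, 9 of 9 were higher. Isg15 (ENSMUSG00000035692, chromosome 4), a ubiquitin-like protein induced by type I interferon, was counted at 12.3 and 59.7 CPM, from 17 UMIs in 7 cells and 60 UMIs in 20 cells. Its log2 ratio was 2.19 (1.48 to 3.15). Zbp1, a sensor of nucleic acids, was at 35.5 and 99.4 CPM (1.46, 0.98 to 2.01), and Irf7, which amplifies interferon production, at 11.6 and 41.8 CPM (1.76, 0.99 to 2.78). Bst2 was at 86.9 and 162 CPM (0.89), and at 0.52 without the barcode with Siglech. In conventional CD4 T cells 15 of the 19 were higher, with a median of 0.30. Whether the types differ was not tested. Dendritic cell markers moved as well: the 8 markers summed to 726 and 372 CPM in CD8 T cells and 1137 and 398 CPM in conventional CD4 T cells, and 4 of the 5 considered in CD8 T cells were at least 2-fold lower with tamoxifen (median -1.36). In vehicle CD8 T cells, 97 of 174 H2-Ab1 UMIs and 181 of 396 Cd74 UMIs came from 1 cell. The part of such transcripts in the results on interferon, proliferation and granzyme A was not tested.

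All 20 proliferation genes were lower with tamoxifen in CD8 T cells, with a median of -0.91, and 9 of them were at least 2-fold lower. Mki67 was counted at 182 and 92.5 CPM (-0.97, -1.34 to -0.63), with 50 of 252 and 34 of 93 UMIs in 1 cell of each library, Top2a, which untangles chromosomes, at 216 and 119 CPM (-0.85, -1.17 to -0.54) and Hmgb2 at 1104 and 671 CPM (-0.72, -0.85 to -0.59). In conventional CD4 T cells 15 of the 20 were higher, with a median of 0.15, and the difference between types was not tested. At least 2 UMIs of G2 and mitosis genes were held by 17 of 184 cells, 9.24% (5.48 to 14.4), and 8 of 146, 5.48% (2.40 to 10.5), and these intervals overlap.

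Gzma gave 176 UMIs in 14 vehicle cells, 67 of them in 1 cell, and 1 UMI with tamoxifen (log2 ratio -6.01). Without the top cell of each library the ratio was -6.35. In conventional CD4 T cells the ratio was -2.42 and in NK cells 0.07. Gzmb went the other way, at 64.4 and 142 CPM (1.13, 0.75 to 1.54), and its ratio in conventional CD4 T cells was 1.23. Of its UMIs in CD8 T cells, 22 of 89 and 44 of 143 came from 1 cell in each library, and without them the level was 48.5 and 98.4 CPM. Kcnq5, a potassium channel, was at 153 and 24.9 CPM (-2.57), Ikzf2 (Helios) at 175 and 32.8 CPM (-2.38) and Tnfrsf4 at 33.3 and 5.97 CPM (-2.30), with ratios of -0.03, 0.04 and 0.10 in conventional CD4 T cells. Ikzf2 was held by 37 and 14 cells, with 30 of its 241 vehicle UMIs in 1 cell, and its ratio was -1.24 as a mean over cells of CPM. The Tnfrsf4 ratio was 0.082 when 1 CD8 UMI sufficed for the gate. Gdpd3 was at 65.2 and 1.99 CPM (-4.47) and was also lower in conventional CD4, regulatory T and NK cells, at -5.64, -7.01 and -5.84. Dlg2, Ccnb1, Tff1, Knl1 and Nrn1 completed the lower 10. Tox was at 500 and 227 CPM (-1.14, -1.36 to -0.92).

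Of the 10 higher genes, 3 rest on the barcode with Siglech. All 25 Klk1 UMIs, all 29 Cox6a2 UMIs and 35 of 36 Siglech UMIs of the library labelled tamoxifen came from it, and without it the ratios of Cox6a2 and Siglech were -1.29 and -1.59. Hmgcll1 was at 4.35 and 31.8 CPM (2.62), from 3 and 16 cells, and gave no UMI in conventional CD4 T cells. Edaradd was at 7.24 and 45.7 CPM (2.50), with 26 of its 46 UMIs in 1 cell. Asb7, Tnfrsf13b and Txnrd2 were at 1.75, 1.74 and 1.67, and Isg15 and Irf7 are given above. Without that barcode 85 genes were higher and 167 lower.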

How the data were processed

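Single-cell RNA was measured in 4 libraries with version 3 of the 10x Genomics 3′ chemistry, per the labels' protocols. The authors' deposited values are raw UMI counts. Cell Ranger 7.0.1 is named per the file headers, and Cell Ranger 7.2.0 with mm10 per the submitters' processing notes. The annotation release, intron use and strand are not given in the sources used here. Of 32289 features, 32158 matched GENCODE M21 (GRCm38), which gave coordinates.

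Members and gene lists were chosen with earlier results of these data known. Barcodes were gated by UMIs, with no clustering and no doublet removal. Scrublet (scanpy 1.11.5) gave 4 and 2 CD8 T cells a score of 0.25 or more, and leaving them out was an alternative. UMIs of 4 lymphocyte types in 2 libraries (8 sums, 3 residual degrees of freedom) were fitted with edgeR 4.0.16 (TMM, filterByExpr, glmQLFit, glmQLFTest), with DESeq2 1.42.0 as an alternative. Treatments were compared by size alone. CPM within Ccl5 ranges used all UMIs of the cells. The scripts were tested on simulated data.

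Named genes are the 10 furthest apart each way among those called (between cell types) or at least 2-fold apart, with 20 CPM or more on the higher side, and the most abundant members of each list. Left out were genes of mitochondria, ribosomal proteins, immunoglobulins, T cell receptors and gates, unnamed genes, sex-linked transcripts and, between treatments, genes over 5 times higher in barcodes without Cd3. One allele of the genotype and a few genes that met these rules are not reported here, though counts over lists include such genes. Genes that share reads with near-identical copies, such as the Klra, Klrc and H2-Q genes, are uncertain.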

Additional observations from a re-analysis of the deposited data

Results flagged for a closer look

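Cox6a2, which encodes a heart and muscle subunit of cytochrome c oxidase, was at least 2-fold apart in opposite directions in CD8 and in conventional CD4 T cells. Its log2 ratio of the library labelled tamoxifen over vehicle was 3.61 in CD8 T cells and -1.57 in conventional CD4 T cells, a gap of 5.18 that was not tested. All 29 of its UMIs in CD8 T cells of the library labelled tamoxifen came from 1 barcode, the one with 35 Siglech UMIs.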

How the results depend on the processing

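Leaving out every cell with a UMI of Lyz2, Chil3, Cd79b, Sftpc or S100a8 left 14 and 3 CD8 T cells, 0.192% and 0.0482% of kept barcodes, of which 28.6% held at least 2 Ccl5 UMIs with vehicle. It left 5 genes higher and 1 lower against conventional CD4 T cells, 77 and 61 against NK cells, and 1617 and 3057 between treatments, where Edaradd (-4.71), Isg15 (-3.76), Kcnq5 (0.84) and Ikzf2 (1.43) changed sign. DESeq2 called 122 higher and 135 lower against conventional CD4 T cells and 592 higher against NK cells, and no longer called Klrd1, Tnfrsf4, Klra8, Klra4, Klra7, Klrb1a and Serpinb9b. No filter on low counts gave 495 lower, and no library term 139 higher and 173 lower, against conventional CD4 T cells.

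Between treatments, a pseudocount of 5 gave 60 higher and 103 lower. A minimum of 10 CPM gave 222 and 298, one of 50 CPM 33 and 44, and none 856 and 1206. A 1.5-fold rule gave 337 and 685, and a 4-fold rule 7 and 18. Without the top cell of each library, an alternative chosen after seeing the data, Cox6a2 was at -0.80 and Siglech at -0.97. With 1 CD8 UMI sufficing, Tnfrsf4 was at 0.082. A gate of 4 CD8 UMIs put the vehicle share at 2.16%, and 1 UMI of each chain at 2.12%. Without thinning, 53.3% of vehicle cells held at least 2 Ccl5 UMIs, and 44.5% of the library labelled tamoxifen held at least 4. For 13 gene values both libraries were at 0 UMIs and no value is given. Every other count stayed within 1.5 times, and every other share within its interval, under the remaining alternatives run. Leaving out cells over 1% of such UMIs, or the barcode with Siglech, was also chosen after seeing the data. No paired analysis was possible because each group is 1 library. The stricter rules left fewer cells, and the cause of these shifts was not tested.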

Other observations

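A set of vehicle CD8 T cells carried Tcrg-C1, the constant region of a T cell receptor gamma chain. It gave 111 UMIs in 22 cells with vehicle and 2 UMIs in 1 cell in the library labelled tamoxifen, and all 22 cells also held a Trac, Trbc1 or Trbc2 UMI. In the 17 vehicle cells with at least 2 Tcrg-C1 UMIs, Itgae was at 810 CPM, against 271 CPM in cells with none. Cd8a was at 974 against 607 CPM there and Cd8b1 at 466 against 639 CPM. Trdc gave no UMI in either set, but the rule allowed at most 1 UMI of Trdc and Cd163l1. Cd8a and Cd8b1 also chose the cells, so these levels are a description and no check of cell type. These cells were singled out after their values were seen, and the share of each cell's receptor on its surface was not measured.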
